A study of Homo sapiens with 8 samples.

Results

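The genes of the interferon response and of MHC class I antigen presentation formed a list of 33 symbols, in 3 roles: 9 genes of MHC class I and peptide loading, 6 STAT and IRF transcription factors and 18 interferon-stimulated genes. All 33 were present in the count tables, and 29 reached 10 counts in 2 or more libraries and were tested, among 13943 genes tested in all. The RNA came from wild-type HepG2, a commercial human cell line derived from a hepatocellular carcinoma, so that all libraries stand for 1 cell line. The 4 2D-primed cultures were kept for 8 days on flat plastic, and the 4 3D-primed cultures were kept for 8 days on Alvetex Strata, an inert porous polystyrene scaffold that was seeded more densely. All 8 cultures shared the medium, MEM with non-essential amino acids, glutamine and foetal bovine serum, and were released with trypsin before lysis, and no interferon or other agent is named in the labels. Seeding density and scaffold therefore differed together between the groups and cannot be told apart.

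Cells detect viral or misplaced nucleic acid with receptors such as RIG-I and MDA5 and answer by secreting interferons. Interferon bound at the cell surface activates JAK kinases, which phosphorylate STAT proteins. A complex containing STAT2 and IRF9 then binds the interferon-stimulated response element (ISRE) in promoters of antiviral genes, and STAT dimers bind the gamma-activated site (GAS). The response also raises MHC class I, the heavy chain and beta-2-microglobulin complex that shows peptides, pumped into the endoplasmic reticulum by TAP, to cytotoxic T cells, and hepatocytes use these defences against hepatitis viruses.

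The promoter stretches of 8 members are given first. Each holds a match to the letters of the ISRE or the GAS, and these genes moved in opposite directions or did not pass the test. Other members, with or without a match, are not printed. Each line is 160 bases before the RefSeq start site in GRCh38.p14, written 5′ to 3′ on the gene's strand. The capitals mark matches to the core letters of the ISRE, which are GAAA, any 2 bases and GAAA, or on the other strand TTTC, any 2 bases and TTTC. In IRF9 they mark the letters of the GAS, which are TTC, any 3 bases and GAA. Overlapping matches run together, as in BST2, B2M and ISG15.
IFI6, chr1:27672193-27672352, minus strand: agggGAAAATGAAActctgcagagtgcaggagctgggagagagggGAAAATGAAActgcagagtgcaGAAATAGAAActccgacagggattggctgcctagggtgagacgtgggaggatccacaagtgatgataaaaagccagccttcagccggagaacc
OAS3, chr12:112938314-112938473, plus strand: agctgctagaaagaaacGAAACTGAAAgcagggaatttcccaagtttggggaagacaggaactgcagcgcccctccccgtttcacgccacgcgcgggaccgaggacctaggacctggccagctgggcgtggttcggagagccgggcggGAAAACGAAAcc
ISG15, chr1:1013337-1013496, plus strand: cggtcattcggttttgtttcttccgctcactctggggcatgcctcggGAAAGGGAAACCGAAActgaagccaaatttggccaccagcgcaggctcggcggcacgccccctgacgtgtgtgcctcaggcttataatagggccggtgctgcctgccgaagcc
IFIT1, chr10:89392463-89392622, plus strand: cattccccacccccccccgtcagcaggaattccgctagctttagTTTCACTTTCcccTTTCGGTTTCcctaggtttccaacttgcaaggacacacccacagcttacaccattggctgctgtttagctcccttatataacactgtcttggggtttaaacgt
IFIT3, chr10:89327837-89327996, plus strand: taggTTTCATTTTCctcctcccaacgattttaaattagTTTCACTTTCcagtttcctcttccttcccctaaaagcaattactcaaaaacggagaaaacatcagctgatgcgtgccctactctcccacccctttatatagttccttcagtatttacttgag
BST2, chr19:17405631-17405790, minus strand: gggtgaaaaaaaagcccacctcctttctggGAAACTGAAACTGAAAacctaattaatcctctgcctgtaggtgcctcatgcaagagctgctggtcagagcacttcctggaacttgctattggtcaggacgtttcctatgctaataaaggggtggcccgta
B2M, chr15:44711357-44711516, plus strand: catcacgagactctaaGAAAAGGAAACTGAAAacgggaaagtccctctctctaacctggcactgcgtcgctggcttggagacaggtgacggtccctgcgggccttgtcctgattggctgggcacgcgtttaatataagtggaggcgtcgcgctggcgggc
IRF9, chr14:24161105-24161264, plus strand: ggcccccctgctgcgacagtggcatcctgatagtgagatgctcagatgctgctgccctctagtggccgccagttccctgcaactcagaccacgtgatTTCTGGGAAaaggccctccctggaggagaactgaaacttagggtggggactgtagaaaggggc

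The RefSeq promoter table, with 300 bases for each start site, held 26 of the 33 members. The ISRE letters were present on either strand in 16 of these 26 genes (61.5%), against 1195 of 27305 genes of the table (4.38%) and 1255 of 35116 promoters (3.57%). The GAS letters were present in 9 of the 26 (34.6%), against 2560 of 27305 genes (9.38%) and 2689 of 35116 promoters (7.66%). Interferon-stimulated genes are known for these elements, so the share describes the list and is not a finding of the culture comparison. Among members with a promoter entry, the ISRE letters stood in 4 of 7 that were higher in 3D-primed cells, 4 of 6 that were lower and 6 of 10 that did not pass the test. The letters thus occurred on both sides of the comparison, as they do in the printed IFIT3 and IFI6 stretches.

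The 8 libraries held 21599630 to 25019499 counts in the 2D-primed group and 22153063 to 27844077 in the 3D-primed group, and the difference in depth did not pass the exact permutation test (two-sided p = 0.2571). Mitochondrially encoded genes took 1.40% to 1.81% of the counts in 2D-primed and 2.47% to 2.98% in 3D-primed libraries (exact permutation test, two-sided p = 0.0286, the smallest p that 4 against 4 allows). All 8 hepatocyte markers passed the filter, and their summed level was 60813 to 66517 CPM in 2D-primed and 78961 to 89642 CPM in 3D-primed libraries. ALB carried most of that rise (26391 to 44035 CPM), 6 of the 8 were called higher, and APOB (12693 to 10690 CPM, adjusted p = 0.016) and SERPINA1 (10748 to 9771 CPM, adjusted p = 0.011) were called lower by edgeR. Of 10 immune cell markers 4 passed, CD3E, MS4A1 and CD163 were at 0 in every library, and PTPRC, the pan-leukocyte marker, had at most 2 counts. The immune sum ran from 2197 to 2288 CPM in 2D-primed and from 2424 to 3030 CPM in 3D-primed libraries, nearly all of it LYZ (2168 ± 39.7 to 2642 ± 262 CPM), while CD68 fell from a mean of 72.7 to 34.4 CPM (adjusted p = 6.3e-07, edgeR). Of 8 stromal and endothelial markers 5 passed, with sums of 17.7 to 19.4 and 19.9 to 22.3 CPM, and STAB2 was at 0 throughout. PDGFRB carried the rise of that sum (10.7 ± 0.432 to 16.4 ± 1.22 CPM), while CDH5 fell from 4.73 ± 0.703 to 1.59 ± 0.33 CPM and COL1A1 from 0.969 ± 0.226 to 0.0703 ± 0.049 CPM. The part of these shifts, and of the mitochondrial share, in the results was not tested.

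Levels are given as TMM-normalised CPM, the count scaled to library size, and a gene was called when its adjusted p was below 0.05 in edgeR's quasi-likelihood test with Benjamini-Hochberg adjustment over all 13943 genes, which gave every adjusted p below unless another tool is named. Values of single libraries are listed in the order of replicates 1 to 4, although replicates have no order. The labels do not say whether the 4 cultures of a group were grown independently, so these p-values measure the spread between these libraries, which may be technical. In bulk RNA, fewer cells expressing a gene and less RNA per cell cannot be told apart. Of the 29 members tested, 15 were called (51.7%), where 63.9% of all genes tested were called. They comprised 8 that were higher in 3D-primed cells (32.4% of all genes were) and 7 that were lower (31.6% of all genes were). The median log2 fold change of the members was -0.00, and that of all genes was 0.01. In 14 of the 29 members the groups did not overlap, against 59.8% of all genes. The list as a whole therefore was not called more often than all genes in either direction, and its genes were split between both. Of the interferon-stimulated genes 12 of 17 tested were called (70.6%), of the STAT and IRF factors 2 of 5 (40%) and of the MHC class I and peptide-loading genes 1 of 7 (14.3%).

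**Figure D1:**
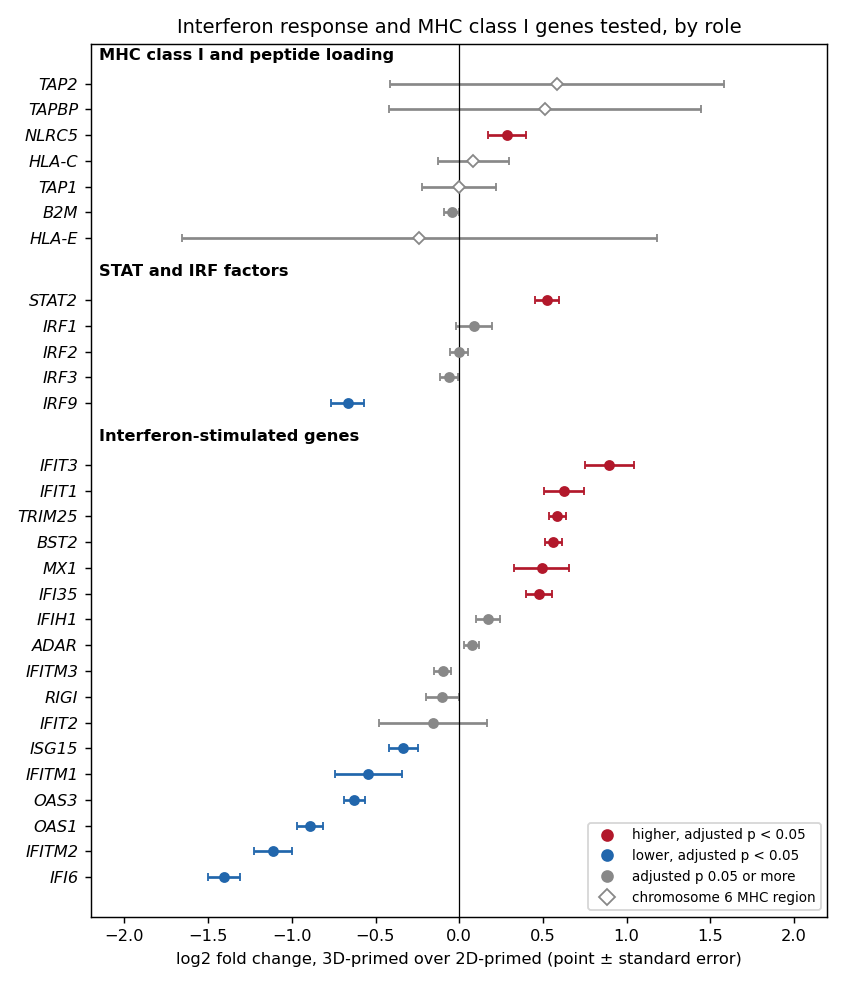
Log2 fold change of 3D-primed over 2D-primed cells (horizontal axis) for the 29 members tested, grouped by role, with bars for the standard error; colours give the call and diamonds mark genes of the MHC region of chromosome 6. The interferon-stimulated genes spread from -1.41 for IFI6 to 0.90 for IFIT3, and the diamonds of HLA-E, TAP2 and TAPBP have the widest error bars.

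The interferon-stimulated genes, whose products block viral entry, translation or replication, were called in both directions, with 6 higher and 6 lower in 3D-primed cells and a median log2 fold change of -0.10. IFI6, an antiviral protein of the endoplasmic reticulum (chr1:27666064-27672212, GENCODE v44 on GRCh38), measured 18.1, 20.3, 22.6 and 21 CPM in the 2D-primed libraries and 8.75, 7.84, 6.56 and 7.82 CPM in the 3D-primed libraries. All 3D-primed libraries lay below all 2D-primed ones. The mean fell from 20.5 ± 1.88 to 7.74 ± 0.901 CPM (log2 fold change -1.41, SE 0.0962, adjusted p = 8.0e-07), the largest change among the members tested. The IFI6 promoter stretch held 3 ISRE matches. By exact sequence, 24.3% of the 31-base words of the canonical IFI6 transcript also occurred in other annotated genes, and 23.8% occurred in LINC02574. LINC02574 was not analysed here, and whether it was among the transcripts used for counting was not checked.

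The 2 oligoadenylate synthetases of the list, which make the activator of RNase L on sensing double-stranded RNA, were both lower. OAS1 (chr12:112905856-112933219) measured 19, 21.2, 23.2 and 21.7 CPM in the 2D-primed libraries and 12.8, 10.5, 11.1 and 11.4 CPM in the 3D-primed libraries. OAS3 (chr12:112938051-112976460) measured 34.2, 39.1, 38.2 and 33.2 CPM in the 2D-primed libraries and 22.1, 24.7, 23.6 and 23.4 CPM in the 3D-primed libraries. Neither gene had overlapping groups, and the log2 fold change was -0.89 for OAS1 (SE 0.079, adjusted p = 4.5e-06) and -0.63 for OAS3 (SE 0.0628, adjusted p = 1.1e-05). ISG15, a ubiquitin-like modifier (chr1:1001138-1014540), measured 16.6, 21, 20.8 and 21.6 CPM in the 2D-primed libraries and 17.2, 15.8, 15.3 and 15.2 CPM in the 3D-primed libraries. Its groups overlapped, because 2D-primed replicate 1 lay below the highest 3D-primed library, and the mean fell from 20 ± 2.31 to 15.9 ± 0.919 CPM (log2 fold change -0.33, SE 0.0853, adjusted p = 0.0058).

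The IFITM genes encode small membrane proteins that hold back virus fusion, and lie side by side on chromosome 11. IFITM2 (chr11:303655-309397) measured 70.7, 78.2, 92.2 and 76.5 CPM in the 2D-primed libraries and 34.8, 37.6, 44.4 and 30.1 CPM in the 3D-primed libraries, with no overlap. Its mean fell from 79.4 ± 9.12 to 36.7 ± 5.99 CPM (log2 fold change -1.11, SE 0.114, adjusted p = 1.3e-05). IFITM1 was a low gene, at 2.25, 2.2, 3.17 and 2.19 CPM in the 2D-primed libraries and 1.4, 1.64, 2.19 and 1.51 CPM in the 3D-primed libraries. It was called lower (log2 fold change -0.54, SE 0.1995, adjusted p = 0.035), but the call was lost without 2D-primed replicate 3 (adjusted p = 0.116), or without 3D-primed replicate 1 (0.0865), replicate 2 (0.0672) or replicate 4 (0.0802). IFITM3, at 106 ± 6.57 to 99.5 ± 4.06 CPM, had a log2 fold change of -0.10 (SE 0.0511) that did not pass (adjusted p = 0.12), and passed without 2D-primed replicate 1 (log2 fold change -0.13, adjusted p = 0.0357). Of the 31-base words of their canonical transcripts, 59.4% of those of IFITM1, 46.8% of IFITM3 and 17% of IFITM2 also occurred in other annotated genes. IFITM1 shared 21.3% of its words with IFITM3 and 52.2% with ENSG00000288681, which was not analysed here, and IFITM3 shared 23.4% with IFITM1, so the split of reads is uncertain. Counted together as 1 feature, the sum of the 3 genes fell (log2 fold change -0.45; adjusted p = 1.3e-04 by edgeR). IFITM2 had the largest fall of the 3 in CPM, and IFITM3 was not called on its own.

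The genes that were higher came from other families. IFIT1 (chr10:89392546-89406487) and IFIT3 (chr10:89327307-89377473) encode tetratricopeptide proteins, and IFIT1 binds viral RNA without the host cap modification. IFIT1 measured 2.7, 2.72, 2.6 and 2.53 CPM in the 2D-primed libraries and 4.3, 4.6, 3.58 and 3.85 CPM in the 3D-primed libraries. IFIT3 measured 1.97, 2.12, 1.71 and 1.94 CPM in the 2D-primed libraries and 3.89, 4.12, 2.98 and 3.45 CPM in the 3D-primed libraries. Both genes were low, and in both every 3D-primed library exceeded every 2D-primed one, with log2 fold changes of 0.63 (SE 0.121, adjusted p = 0.001) and 0.90 (SE 0.146, adjusted p = 3.4e-04). IFIT2, the third IFIT gene of the list, had 8 to 12 counts per library and was not called (log2 fold change -0.16, SE 0.325, adjusted p = 0.69). Whether its fold change differed from those of IFIT1 and IFIT3 was not tested.

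TRIM25, the ubiquitin ligase that activates RIG-I (chr17:56836387-56914080), measured 67.5, 62.6, 60.7 and 62.1 CPM in the 2D-primed libraries and 94.6, 94.1, 89.1 and 102 CPM in the 3D-primed libraries. The 3D-primed libraries were all higher, and the mean rose from 63.2 ± 2.96 to 94.9 ± 5.2 CPM (log2 fold change 0.59, SE 0.0503, adjusted p = 3.7e-06). BST2, or tetherin, which holds budding virus at the cell surface (chr19:17402939-17405630), measured 29.5, 30.8, 32.5 and 31.6 CPM in the 2D-primed libraries and 44.4, 48.5, 43 and 47.7 CPM in the 3D-primed libraries. Here too the groups were apart, with a rise from 31.1 ± 1.28 to 45.9 ± 2.62 CPM (log2 fold change 0.56, SE 0.0507, adjusted p = 5.2e-06). IFI35, an interferon-induced leucine zipper protein, rose from 15.1 ± 0.334 to 21.1 ± 2.34 CPM (log2 fold change 0.48, SE 0.0788, adjusted p = 3.7e-04) with no overlap. MX1, a dynamin-like GTPase that traps viral nucleocapsids, measured 1.88, 2.42, 1.91 and 2.49 CPM in the 2D-primed libraries and 2.79, 3.81, 2.94 and 2.74 CPM in the 3D-primed libraries. MX1 was called higher (log2 fold change 0.49, SE 0.165, adjusted p = 0.023), and the call was lost without 2D-primed replicate 1 (adjusted p = 0.06), 2D-primed replicate 3 (0.0653) or 3D-primed replicate 2 (0.0731).

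**Figure D2:**
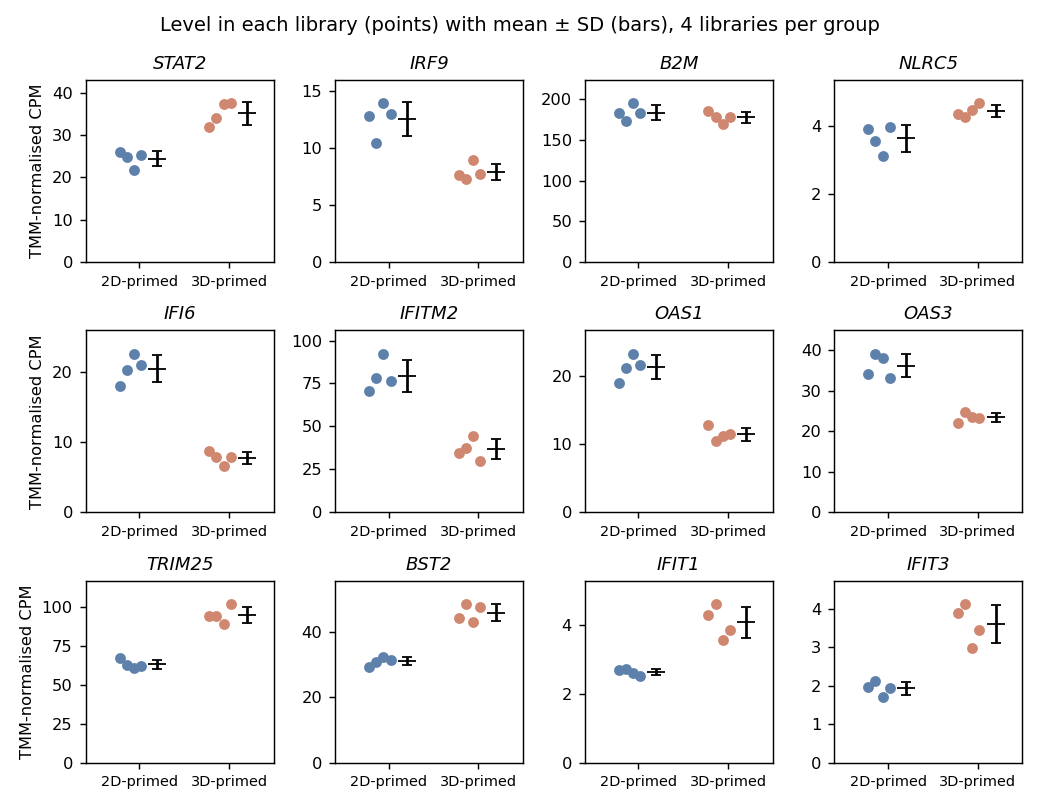
TMM-normalised CPM in each library (points) with the mean and SD of 4 libraries (bars) for 12 members, each panel with its own axis from 0. IFI6, IFITM2, OAS1, OAS3 and IRF9 sit lower in 3D-primed cells, STAT2, TRIM25, BST2, IFIT1 and IFIT3 sit higher, and the B2M groups overlap.

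ADAR, IFIH1 and RIGI, which also act on double-stranded RNA, did not pass the test. ADAR, the adenosine deaminase that edits double-stranded RNA, measured 163, 177, 164 and 169 CPM in the 2D-primed libraries and 166, 181, 184 and 179 CPM in the 3D-primed libraries, and its log2 fold change was 0.08 (SE 0.0439, adjusted p = 0.16). IFIH1, which encodes MDA5, went from 13.4 ± 1.01 to 15.1 ± 1.03 CPM and lay near the threshold (log2 fold change 0.17, SE 0.0728, adjusted p = 0.058). It passed without 2D-primed replicate 1 (adjusted p = 0.0302) or 3D-primed replicate 3 (0.0276). RIGI, which encodes RIG-I, had a log2 fold change of -0.10 (SE 0.0976, adjusted p = 0.39). In the annotation 96.6% of its 31-base words also belong to ENSG00000288684, which was not analysed here. IFI27, an interferon-induced mitochondrial protein, had 2 counts in 3D-primed replicate 2 and 0 in every other library and was not tested.

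Of the transcription factors, the 2 partners of the ISRE-binding complex moved in opposite directions. STAT2 (chr12:56341597-56360203) measured 25.9, 24.9, 21.8 and 25.3 CPM in the 2D-primed libraries and 31.9, 34, 37.4 and 37.5 CPM in the 3D-primed libraries. Every 3D-primed library was above every 2D-primed one, and the mean rose from 24.5 ± 1.85 to 35.2 ± 2.72 CPM (log2 fold change 0.53, SE 0.0707, adjusted p = 8.9e-05). IRF9, the DNA-binding partner of STAT2 (chr14:24161234-24168043), measured 12.8, 10.4, 13.9 and 13 CPM in the 2D-primed libraries and 7.62, 7.31, 8.89 and 7.66 CPM in the 3D-primed libraries. The groups were again apart, in the other direction, and the mean fell from 12.5 ± 1.5 to 7.87 ± 0.698 CPM (log2 fold change -0.67, SE 0.1003, adjusted p = 1.9e-04). The span of IRF9 overlaps that of a second protein-coding gene model, ENSG00000259529 (chr14:24147548-24166452), which shares 92.9% of the 31-base words of IRF9, so reads can be assigned to either. That identifier measured 3.35, 3.42, 2.81 and 1.98 CPM in 2D-primed and 2.30, 3.76, 5.13 and 5.52 CPM in 3D-primed libraries, and was not called (log2 fold change 0.53, SE 0.271, adjusted p = 0.109). With both identifiers summed, a step chosen after the data had been seen, the fold change shrank to -0.35 (SE 0.11, adjusted p = 0.0165), and the groups overlapped at 13.8 to 16.7 CPM in 2D-primed and 9.92 to 14 CPM in 3D-primed libraries.

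The remaining factors did not pass the test. IRF3, the factor that switches on interferon genes after viral sensing, measured 26.9, 26.4, 29.1 and 28.2 CPM in the 2D-primed libraries and 28.7, 25.7, 25.7 and 25.7 CPM in the 3D-primed libraries (log2 fold change -0.06, SE 0.0544, adjusted p = 0.34). IRF2, which competes with IRF1 at the same sites, measured 28.9, 33, 30.6 and 32.2 CPM in the 2D-primed libraries and 31.2, 30.4, 30.2 and 32.8 CPM in the 3D-primed libraries (log2 fold change -0.00, SE 0.052, adjusted p = 0.98). The groups of both genes overlapped. IRF1, an inducible activator of MHC class I and antiviral genes, stood at 6.5 ± 0.407 and 6.93 ± 0.941 CPM (log2 fold change 0.09, SE 0.108, adjusted p = 0.49). IRF7, the amplifier of interferon production, had 3, 3, 0 and 0 counts in the 2D-primed libraries and 0 in all 3D-primed libraries, below the filter.

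The MHC class I genes were described in 2 parts, because counts of those in the MHC region of chromosome 6 were erratic between libraries of the same group. Outside that region lie B2M and NLRC5. B2M, the invariant light chain of every class I molecule (chr15:44711358-44718851), measured 183, 173, 195 and 183 CPM in the 2D-primed libraries and 186, 178, 169.5 and 177 CPM in the 3D-primed libraries. The groups overlapped, the means were 183 ± 8.95 and 178 ± 6.62 CPM, and the gene was not called (log2 fold change -0.05, SE 0.0456, adjusted p = 0.41). NLRC5, the transactivator of MHC class I promoters (chr16:56989485-57083531), measured 3.89, 3.54, 3.09 and 3.97 CPM in the 2D-primed libraries and 4.34, 4.25, 4.44 and 4.65 CPM in the 3D-primed libraries. The groups did not overlap, and NLRC5 was called with an adjusted p close to the threshold (log2 fold change 0.29, SE 0.114, adjusted p = 0.047). The call was lost with DESeq2 (adjusted p = 0.126) and without 2D-primed replicate 2 (0.0904), 2D-primed replicate 3 (0.129) or any 1 of the 3D-primed replicates 1 (0.0829), 2 (0.0714), 3 (0.0874) and 4 (0.102), with log2 fold changes of 0.22 to 0.30 in these fits.

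Within the MHC region, TAP2, a subunit of the peptide transporter (chr6:32821833-32838739), had 81, 0, 87 and 111 counts in the 2D-primed libraries and 85, 167, 204 and 0 in the 3D-primed libraries. In each group 1 library was at 0 while the others had at least 81 counts, and the log2 fold change of 0.58 had an SE of 0.998 (adjusted p = 0.63). Of the 31-base words of TAP2, 35.5% also occurred in ENSG00000250264, which was not analysed here. TAPBP, or tapasin, which bridges the transporter and the class I heavy chain, had 0, 4, 4 and 28 counts in 2D-primed and 2, 24, 19 and 10 in 3D-primed libraries (log2 fold change 0.51, SE 0.933, adjusted p = 0.65). HLA-E, a class I molecule read by natural killer cells, had 11, 0, 0 and 4 and 0, 0, 0 and 14 counts (log2 fold change -0.24, SE 1.42, adjusted p = 0.89). These 3 genes carried no usable comparison at this precision, and a difference in either direction was not detectable.

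TAP1, the other transporter subunit (chr6:32845209-32853816), measured 4.77, 10.5, 6.8 and 6.41 CPM in the 2D-primed libraries and 7.88, 8.37, 5.45 and 6.87 CPM in the 3D-primed libraries. The groups overlapped fully, and the log2 fold change was -0.00 (SE 0.221, adjusted p = 1.00), but 0.25 without 2D-primed replicate 2 (adjusted p = 0.242). HLA-C, a classical heavy chain (chr6:31268749-31272130), had 36 to 63 counts per library, a level of 1.89 ± 0.452 and 2.002 ± 0.338 CPM (log2 fold change 0.09, SE 0.211, adjusted p = 0.74). HLA-B had 2 to 8 counts and HLA-F 0 to 5 counts per library, and neither was tested.

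Erratic counts were more frequent in the region from HLA-F to TAPBP (chr6:29722775-33314284) than elsewhere in the annotation. The region was examined after the member counts had been seen. Of the 83 identifiers tested there, 13 (15.7%), TAP2 among them, had 0 counts in at least 1 library and at least 50 in another. The share was 59 of 13210 elsewhere in the annotation (0.447%) and 69 of 650 identifiers that the annotation does not hold (10.6%). Among identifiers above 1 CPM, the median coefficient of variation between the 2D-primed libraries was 20.8% in the region (61 identifiers), 5.81% elsewhere (11820) and 14.0% for those outside the annotation (488). Whether reads of these genes were assigned to identifiers that no table used here pairs with the symbols was not tested, and the counts of the 7 members on chromosome 6 are uncertain as a measure of their expression. The 24 members tested outside chromosome 6 held all 15 calls (62.5%, against 63.9% of all genes), and the 5 tested on it held 0 calls. Among those 5, the unadjusted p was below 0.05 for 0 of them, and DESeq2 called 0 of them.

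**Figure D3:**
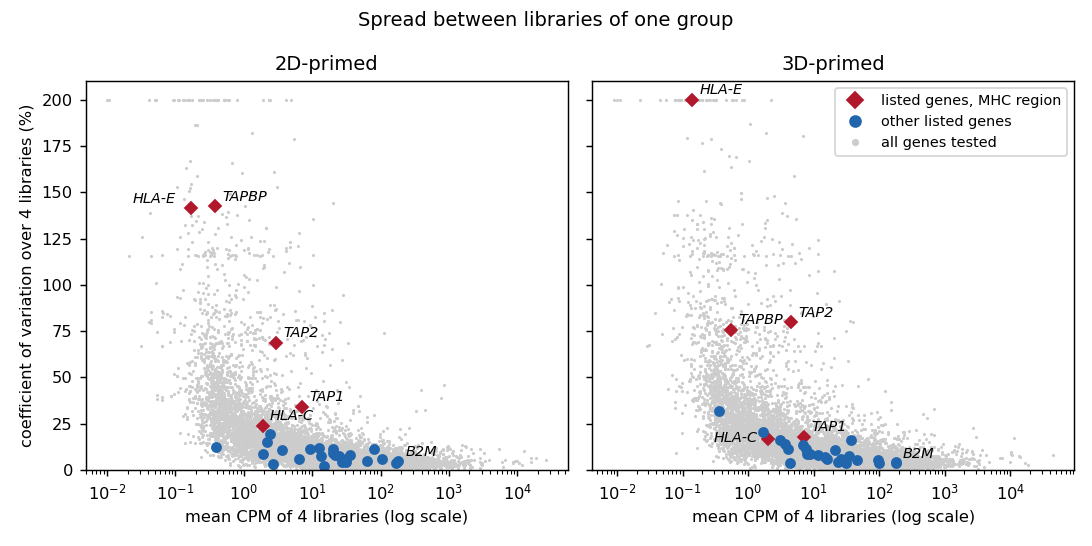
Coefficient of variation over the 4 libraries of a group (vertical axis, percent) against mean CPM (logarithmic axis), for all genes tested (grey), members in the MHC region (diamonds) and other members (circles). TAP2 lies above most genes of its level in both panels, while B2M lies among the other genes.

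Per kilobase of the canonical transcript, the scale on which levels of different genes can be compared, B2M (194 CPM per kb in 2D-primed cells, 188 in 3D-primed cells) and IFITM3 (174 and 163 CPM per kb) had the highest means of the members in both groups. The order below them differed between the groups. IFITM2 came next in 2D-primed cells, at 78.9 against 31 CPM per kb for BST2, and BST2 came next in 3D-primed cells, at 45.9 against 36.5 CPM per kb for IFITM2. IFI6 stood at 25.2 CPM per kb in 2D-primed cells, above IRF3 at 17.3, and at 9.54 in 3D-primed cells, below IRF3 at 16.6. Of the partners STAT2 and IRF9, IRF9 had the higher level in 2D-primed cells (7.69 against 5.56 CPM per kb) and STAT2 in 3D-primed cells (7.99 against 4.84 CPM per kb). The IRF9 level leaves out reads assigned to the overlapping identifier described above, so this order is uncertain. The split of reads among the IFITM genes is uncertain as well, which limits the places of IFITM2 and IFITM3. The order of 2 genes within a group was not tested. The heavy chain HLA-C was listed at 1.22 and 1.3 CPM per kb and HLA-B at 0.147 and 0.117, with the limits on that region given above.

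The rest of the pathway was read from lists of genes around the members. All 16 interferon ligand genes listed, among them IFNB1, had 0 counts in every library, where 3 counts, the limit that a count of 0 allows, correspond to 0.108 to 0.139 CPM per library for counting error only. Of the 9 interferon receptor and kinase genes, 1 rose and 3 fell (44.4% called, against 63.9% of all genes, median log2 fold change -0.10), and 2 rose without 2D-primed replicate 1 or without 3D-primed replicate 1. JAK1, a kinase shared by all interferon receptors, fell from 171 ± 8.76 to 90.5 ± 4.86 CPM (log2 fold change -0.92, SE 0.0513, adjusted p = 2.2e-07), and IFNLR1, a chain of the type III interferon receptor, rose from 12.9 ± 0.39 to 17.1 ± 0.832 CPM (log2 fold change 0.40, SE 0.0552, adjusted p = 1.0e-04). Of the 8 brakes on interferon signalling, 4 rose and 2 fell, where 32.4% of all genes rose and 31.6% fell. SOCS1, the inhibitor of JAK kinases, rose from 6.54 ± 1.25 to 14.6 ± 0.802 CPM (log2 fold change 1.16, SE 0.12, adjusted p = 1.4e-05), and PTPN6, a tyrosine phosphatase, fell from 12.8 ± 0.545 to 9.02 ± 0.769 CPM (log2 fold change -0.50, SE 0.0729, adjusted p = 1.5e-04).

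Of the 9 nucleic acid sensing genes tested, 1 rose and 3 fell (44.4% called, against 63.9% of all genes). Those that fell included MAVS, the adaptor of RIG-I and MDA5, from 219 ± 6.61 to 165 ± 8.23 CPM (log2 fold change -0.41, SE 0.0443, adjusted p = 1.8e-05), and TICAM1, the adaptor of TLR3, from 13.3 ± 0.991 to 7.09 ± 0.328 CPM (log2 fold change -0.91, SE 0.0731, adjusted p = 2.4e-06). Of the 11 genes of the immunoproteasome and antigen trimming, 5 rose and 2 fell (63.6% called, against 63.9% of all genes), and 1 fell without 2D-primed replicate 2 or 4 or without 3D-primed replicate 2, 3 or 4. PSMB8, which was not called, and PSMB9, which was 1 of the 5 that rose, lie in the MHC region, where counts were erratic. PSME1 and PSME2, the subunits of the proteasome activator that shapes class I peptides, rose by 0.27 (SE 0.0478, adjusted p = 5.5e-04) and 0.56 (SE 0.0417, adjusted p = 1.5e-06) on the log2 scale. The class II list had 5 genes tested, of which 4 rose and 0 fell, where 32.4% of all genes rose. CIITA, HLA-DRA, HLA-DRB1, HLA-DPA1, HLA-DPB1 and HLA-DMB had 0 to 9 counts per library and were not tested, and HLA-DMA, with 0 to 11 counts, was not called. All of these except CIITA lie in the MHC region, with the limits given above. The 4 that rose were CD74, the invariant chain, and RFX5, RFXAP and RFXANK, subunits of the factor that also binds class I promoters with NLRC5. RFX5 rose from 8.91 ± 0.246 to 25.4 ± 2.63 CPM (log2 fold change 1.51, SE 0.0786, adjusted p = 1.5e-07), and RFXAP by 0.73 (SE 0.0893, adjusted p = 4.5e-05).

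Of 31 further interferon-stimulated genes tested, 11 rose and 12 fell. With the members added, 35 of 48 genes were called (72.9%, against 63.9% of all genes), 17 higher and 18 lower, where all genes split into 4515 higher and 4401 lower, with a median log2 fold change of -0.09. APOL6, an interferon-inducible apolipoprotein L, rose from 16.8 ± 0.886 to 40.9 ± 1.83 CPM (log2 fold change 1.28, SE 0.053, adjusted p = 4.6e-08), and LAP3, a leucine aminopeptidase, fell from 202 ± 14.5 to 109 ± 4.37 CPM (log2 fold change -0.89, SE 0.0552, adjusted p = 4.2e-07).

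**Figure D4:**
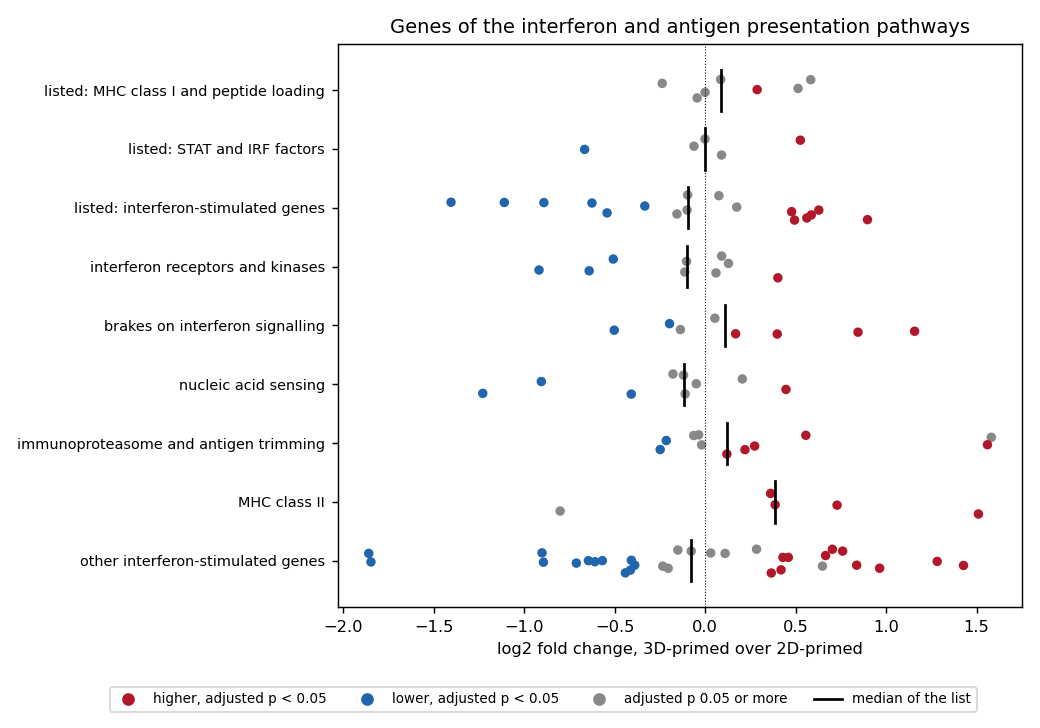
Log2 fold change of 3D-primed over 2D-primed cells (horizontal axis) for every gene tested in the 3 member lists and 6 further lists, with a bar for each list's median; colours give the call. Both colours occur in 7 of the 9 lists, and the medians lie between -0.12 and 0.39.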

How the data were processed

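RNA of 8 HepG2 cultures, 4 2D-primed and 4 3D-primed, was sequenced from directional poly(A) libraries. The authors deposited estimated counts per gene for each library, quantified by Salmon against the human cDNA set of Ensembl for GRCh38 and collapsed to gene level by tximport. The files hold whole numbers without scaling to depth, and the tximport setting for transcript length is not given in the sources used here. Ensembl cDNA holds alternate copies of the MHC region.

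Groups were taken from the sample labels. Of 38032 identifiers, 34977 (91.97%, carrying 97.52% of the counts) matched GENCODE v44, and 650 tested identifiers without a symbol stayed in the test. A gene was kept if it reached 10 counts in 2 or more of the 8 libraries, as in the study. Libraries were scaled by TMM and compared with glmQLFit and glmQLFTest in edgeR 4.0.16 (R 4.3.3), with Benjamini-Hochberg adjustment and a threshold of 0.05. The common biological coefficient of variation was 0.0934. Libraries of the same group differed by more than counting noise (chi-square per degree of freedom 6.32 to 17.4), and none were merged.

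The members and gene lists, including pathway lists and cell type markers, come from general knowledge and were chosen with earlier results of these data known. The genes named are, for each role of members, the 3 with the smallest p, the largest change and the highest mean CPM, and for each pathway list the 2 with the smallest p. Other members were described after their values were seen, so that all 33 are accounted for. Some single genes of the pathway are not reported here.

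Alternatives were DESeq2 1.42.0, limma-voom (limma 3.58.1), other size factors and filters, a replicate block and leaving out each library. The fit was tested on simulated data. Sequences and start sites came from RefSeq, and shared sequence was counted as 31-base words in the transcripts of GENCODE v44. The deposited counts used the Ensembl cDNA set instead. Whether that set held the sharing genes that were not analysed here was not checked. Figures were made with matplotlib 3.10.9 and tables with pandas 2.3.3, both under Python 3.11.15.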

Additional observations from a re-analysis of the deposited data

Results flagged for a closer look

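In 6 of 58 groups of 4 libraries, the highest or lowest CPM lay far from the other 3 by Dixon's test, where chance flags about 1 in 20 groups. In HLA-E, 3D-primed replicate 4 was at 0.556 CPM and the other 3 were at 0. In TAPBP, 2D-primed replicate 4 was at 1.18 CPM and the others at 0 to 0.173. In IFITM1, 2D-primed replicate 3 was at 3.17 CPM and the others at 2.19 to 2.25. In ISG15, 2D-primed replicate 1 was the lowest at 16.6 CPM, with the others at 20.8 to 21.6. In IRF3, 3D-primed replicate 1 was at 28.7 CPM and the others were all at 25.7 CPM. In IFIT2, 3D-primed replicate 2 was at 0.531 CPM and the others at 0.287 to 0.318. The 6 flags fell on 6 different libraries, and the causes were not tested.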

How the results depend on the processing

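Over all genes, 8357 to 9070 were called across the alternatives, and the upper quartile scaling moved the median log2 fold change from 0.01 to 0.06. Counts that moved by more than 1.5 times were 3. The MHC class I and peptide-loading genes called higher went from 1 to 0 with DESeq2, RLE size factors, filterByExpr and the replicate block, and ranged from 0 to 1 when 1 library was left out. The receptors and kinases called higher went from 1 to 3 with the upper quartile, and ranged from 1 to 2 when 1 library was left out. The immunoproteasome and trimming genes called lower went from 2 to 1 with DESeq2, total counts, the upper quartile, no filter and the replicate block, and ranged from 1 to 2 when 1 library was left out. The causes were not tested.

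Fold changes that changed sign were all of genes that were not called. B2M was at 0.005 with the upper quartile. TAP1 was at 0.023 with limma-voom, 0.031 with total counts, 0.051 with the upper quartile, 0.004 without a filter and 0.033 with the replicate block, and ranged from -0.15 to 0.25 when 1 library was left out. IRF2 was at 0.027 with total counts, 0.049 with the upper quartile and 0.004 without a filter, and ranged from -0.036 to 0.026 when 1 library was left out. When 1 library was left out, HLA-C ranged from -0.011 to 0.23 and HLA-E from -0.66 to 0.18. Over all alternatives the lowest HLA-E value was -0.825. Among single genes, ADAR passed with the upper quartile (log2 fold change 0.13, adjusted p = 0.026), IFIH1 with total counts (0.20, 0.0443), the upper quartile (0.22, 0.0231) and the replicate block (0.17, 0.0457), while IFITM1 missed with the upper quartile (adjusted p = 0.0524) and without a filter (0.0535), and NLRC5 missed with RLE size factors (0.0539), filterByExpr (0.0524), no filter (0.0876) and the block (0.0756).

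Libraries with the same replicate number did not deviate together (correlation of deviations -0.043 to 0.057). This cannot show whether the cultures were set up in pairs, and the labels do not say. The replicate block called 8490 genes against 8916. The planned sum over all identifiers of an MHC symbol was not run, because no table used here pairs them. Counts of IRF7 and IFI27 are too few for the test. IFIT2, with 8 to 12 counts per library, was tested with an SE of 0.325, so a small difference could be missed. Counts of HLA-B and HLA-F are also too few for the test, and the limits on the MHC region apply to them as well.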
